A study of Mus musculus with 6 samples.

Results

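The 41 genes described here encode the working parts of transforming growth factor beta (TGF-beta) and bone morphogenetic protein (BMP) signalling: ligands, latent binding proteins, receptors, Smads, secreted antagonists and target genes. They were chosen by name, with earlier results of these data known, and each was read through the probe set that names that gene alone. All 41 of 41 were measured, among 19938 genes compared on 6 arrays of mouse esophageal epithelium. Each array held the RNA of 1 animal aged 3 months. The 3 animals labelled mutant were ED-L2-Cre/Klf4loxp/loxp, with both copies of *Klf4* floxed and a Cre transgene under the ED-L2 promoter, which is active in squamous epithelia such as that of the esophagus. The 3 controls were Klf4loxp/loxp littermates that carried the same floxed gene but no Cre. Both groups held 1 male (replicate 1) and 2 females (replicates 2 and 3) on a mixed genetic background, with no treatment given in the labels. *Klf4* encodes a zinc-finger transcription factor of differentiating epithelium.

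TGF-beta is secreted in an inactive complex whose latency protein is tied to a latent binding protein (LTBP), which anchors the complex in the matrix until the ligand is released. Active TGF-beta and activin signal through paired type I and type II receptor kinases to Smad2 and Smad3, and BMPs signal to Smad1, Smad5 and Smad9; both sets join Smad4 and enter the nucleus. In squamous epithelium TGF-beta is known for restraining the division of basal cells, and BMPs, held in check by noggin and follistatin, are known for promoting stratification. Id proteins, which block the DNA binding of basic helix-loop-helix factors, are the best known direct targets of BMP signalling.

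The labels were checked first. The log2 signal of *Klf4*, from probe set 10513008, was 9.75, 10.15 and 10.06 in the controls as labelled and 10.28, 10.50 and 10.28 in the mutants as labelled. The signal was thus not lower on the arrays labelled mutant, and the difference of 0.37 ± 0.13 (SE) did not pass (limma adjusted p = 0.314). Where the probes lie relative to the part that Cre removes was not examined here, and probes lying elsewhere would check nothing. Directions are thus those of the labels, with a rise or fall meaning the arrays labelled mutant set against those labelled control. Means of 8 squamous epithelial markers were 11.22 to 11.29 on the control arrays and 11.34 to 11.58 on the mutant arrays, without overlap. None of the 8 passed, and *Cdh1*, *Dsg3* and *Epcam* were each higher on every mutant array, by 0.21, 0.73 and 0.63. The rest overlapped between the groups: *Krt5*, *Trp63* and *Krt4* differed by -0.11, -0.080 and -0.043, and *Krt13* and *Krt14* by 0.027 and 0.16. The set as a whole thus did not share a direction. Markers of cells under the epithelium were also present: means of 12 fibroblast markers were 7.59 to 8.28 on the control arrays and 7.02 to 7.15 on the mutant arrays, without overlap. Means of 6 skeletal muscle markers were 6.48 on control 1 and 6.73 on mutant 3, against 8.84 to 10.50 on the other 4 arrays. Smooth muscle marker means lay at 8.27 to 8.83 in controls and 7.14 to 8.03 in mutants, also apart. All 6 of those markers were lower in the mutants, but *Myh11*, *Des* and *Mylk* overlapped between the groups. *Des* was lowest on control 1 and mutant 3, as the skeletal muscle markers were. Endothelial means (5.04 to 5.48 and 5.15 to 5.32) and macrophage means (5.75 to 6.11 and 5.71 to 6.12) overlapped. The macrophage mean joins genes that went opposite ways: of its 6, *Cd68* rose by 1.11 and *Lyz2* fell by 1.57 on the log2 scale (limma adjusted p = 0.0304 and 0.0463).

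*Ltbp1* and *Ltbp4* were the members that passed the test, and they moved in opposite directions. The sequences shown are the 250 bases before 2 annotated transcription starts of each, taken from RefSeq on build GRCm38.p6, because they lie directly before the starts annotated for the genes that passed. They run 5′ to 3′ along the gene's strand. The capitals mark CACCC or its reverse complement GGGTG, the letters at the core of many sites bound by Kruppel-like factors. The *Ltbp1* windows lie at chr17:75005279-75005528 and chr17:75178531-75178780 on the plus strand, and the *Ltbp4* windows at chr7:27337613-27337862 and chr7:27333664-27333913 on the minus strand.
Ltbp1 upstream start: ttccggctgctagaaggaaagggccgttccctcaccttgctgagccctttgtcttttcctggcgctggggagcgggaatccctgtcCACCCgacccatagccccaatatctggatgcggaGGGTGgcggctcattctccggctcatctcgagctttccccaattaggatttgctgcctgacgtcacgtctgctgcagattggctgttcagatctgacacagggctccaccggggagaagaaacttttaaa
Ltbp1 downstream start: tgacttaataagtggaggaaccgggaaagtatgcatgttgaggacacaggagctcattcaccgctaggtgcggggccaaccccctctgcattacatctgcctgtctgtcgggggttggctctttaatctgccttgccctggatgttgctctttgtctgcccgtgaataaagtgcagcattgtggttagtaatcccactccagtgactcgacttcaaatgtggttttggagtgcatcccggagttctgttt
Ltbp4 upstream start: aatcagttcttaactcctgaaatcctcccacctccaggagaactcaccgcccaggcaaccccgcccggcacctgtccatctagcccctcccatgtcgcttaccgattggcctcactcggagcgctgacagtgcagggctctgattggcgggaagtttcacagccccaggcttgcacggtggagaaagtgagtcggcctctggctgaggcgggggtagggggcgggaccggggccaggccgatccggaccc
Ltbp4 downstream start: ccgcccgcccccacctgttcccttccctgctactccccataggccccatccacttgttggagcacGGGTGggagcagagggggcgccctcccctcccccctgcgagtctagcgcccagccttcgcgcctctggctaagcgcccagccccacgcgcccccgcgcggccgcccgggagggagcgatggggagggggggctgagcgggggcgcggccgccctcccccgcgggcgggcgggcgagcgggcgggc

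The upstream *Ltbp1* window held 2 of these matches and its downstream window held 0. The *Ltbp4* windows held 0 upstream and 1 downstream. A further *Ltbp4* start is listed close to the downstream one, and its window, which overlaps most of the one printed and holds the same matches, is not shown. Such letters are common: 52.0% of the 32851 windows of this length in the table held at least 1 match. Windows were listed for 29 of the 41 genes, 37 windows in all with overlapping ones counted separately, and 59.5% of these held a match. GGCGCC, a GC-rich motif found in elements that respond to BMP, was in 29.7% of the members' windows and 9.59% of all windows, and in the downstream window of *Ltbp4*. CAGAC or its complement GTCTG, the Smad box, was in 45.9% and 42.2%, and in both windows of *Ltbp1*. A match says only that the letters are there. The array gives a single value per gene, so the starts used in these animals were not told apart.

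Latent binding proteins held the largest differences. *Ltbp1*, whose product binds the latent TGF-beta complex to fibrillin and fibronectin fibres, read 5.84, 6.48 and 6.14 on the control arrays and 9.94, 9.05 and 7.83 on the mutant arrays. Every mutant array lay above every control array, with the mutant arrays spread over a wider range. The means were 6.15 ± 0.32 and 8.94 ± 1.06 (SD, n = 3 each). *Ltbp1* rose by 2.79 ± 0.47 on the log2 scale (SE), a 6.91-fold difference (limma adjusted p = 0.0451). *Ltbp4*, whose product is needed for elastic fibre assembly and binds TGF-beta1 complexes, read 9.08, 9.24 and 9.58 on the control arrays and 8.22, 8.43 and 8.50 on the mutant arrays. The groups did not overlap here either. *Ltbp4* fell by 0.91 on the log2 scale, with an SE of 0.15, a level 1.88-fold lower (limma adjusted p = 0.0404). *Ltbp2*, the family member that does not bind latent TGF-beta, differed by 0.069 ± 0.116, and *Ltbp3* by -0.15 ± 0.14, with overlapping groups in both. Among these 4 genes, 1 rose, 1 fell and 2 did not pass.

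Both calls depended on which arrays were kept, and that of *Ltbp1* also on whether a sex term was in the fit. With sex as a covariate, the limma adjusted p was 0.0619 for *Ltbp1*, which no longer passed, and 0.0318 for *Ltbp4*. The difference of *Ltbp1* and its SE stayed at 2.79 ± 0.47. That fit had 3 residual degrees of freedom instead of 4, and called 180 of the 19938 genes. In the females alone neither passed (limma adjusted p = 0.108 and 0.093). *Ltbp1* passed without mutant 3 (3.34 ± 0.30, adjusted p = 0.0142), but leaving out control 1, 2 or 3 gave a limma adjusted p of 0.0909, 0.0856 or 0.178, and leaving out mutant 1 or 2 gave 0.0752 or 0.147. *Ltbp4* passed when control 1 was dropped (adjusted p = 0.040), whereas dropping control 2 or 3 gave a limma adjusted p of 0.0885 or 0.126, and dropping mutant 1, 2 or 3 gave 0.128, 0.119 or 0.0882. The difference kept its direction each time, between 2.29 and 3.34 for *Ltbp1* and between -1.02 and -0.77 for *Ltbp4*. Fits on fewer arrays called fewer of the 19938 genes. The number was 44 to 193 with a single array left out and 83 in the females alone, against 207 with all arrays. Sex could not be told apart from skeletal muscle signal, whose marker mean was 6.48 on the male control and 9.36 on the male mutant. On the female arrays it was 10.50 and 9.91 in controls and 8.84 and 6.73 in mutants. In the male pair, 1 array a side, *Ltbp1* differed by 4.10 and in the females by 2.13. The test of that difference between sexes did not pass (limma adjusted p = 0.766).

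Fibroblast markers differed in the same direction as *Ltbp4*. All 12 were lower on the mutant arrays, 2 of them past the threshold (*Col1a2* and *Thy1*), with a median difference of -0.65. Within each group the arrays stood in the same order for *Ltbp4* as for the mean of the 12 markers, but parts of that order were near ties. The mean was 8.26 and 8.28 on controls 2 and 3, and 7.14 and 7.15 on mutants 2 and 3. Single markers did not all hold the order. *Col1a2* did in both groups, whereas *Dpt* ran the opposite way on the mutant arrays (7.96, 7.45 and 7.26). With that mean as a covariate the difference of *Ltbp4* was -0.40 ± 0.29 and that of *Ltbp1* 3.01 ± 1.12 (limma adjusted p = 1.0 for each), in a fit that called 2 of the 19938 genes. In bulk RNA, fewer cells of a type and less RNA per cell cannot be told apart. Because the fibroblast mean did not overlap between the groups, that fit separates it poorly from genotype. The SE of *Ltbp1* was 0.47 without the covariate and 1.12 with it. The part of the fibroblasts in these differences was thus not tested. Skeletal muscle markers stood lowest on control 1 and mutant 3, as did *Ltbp1* within each group. With their mean as a covariate, chosen after seeing the data, both calls held, at 2.99 ± 0.34 for *Ltbp1* and -0.89 ± 0.16 for *Ltbp4* (limma adjusted p = 0.011 and 0.0434).

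**Figure D1:**
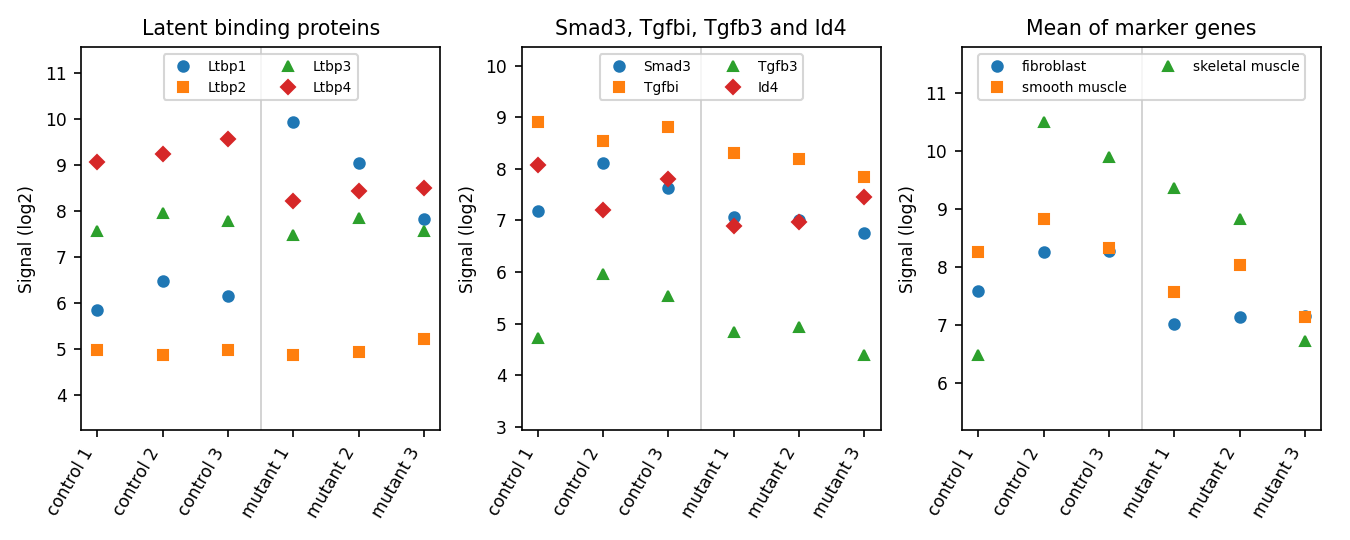
Log2 signal on each of the 6 arrays (horizontal axis) for the 4 latent binding protein genes, for *Smad3*, *Tgfbi*, *Tgfb3* and *Id4*, and for the means of fibroblast, smooth muscle and skeletal muscle markers; each point is 1 array and the grey line divides control from mutant. *Ltbp1* lies between 5.84 and 6.48 on the control arrays and between 7.83 and 9.94 on the mutant arrays, while *Ltbp4* and the fibroblast markers lie lower on the mutant arrays, and skeletal muscle markers are lowest on control 1 and mutant 3.

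Across the whole set, 1 of the 41 genes rose, 1 fell and 39 did not pass. Of all genes tested, 0.366% rose and 0.672% fell, 1.04% in either direction. Differences were negative for 25 members and positive for 16, with a median of -0.096, where 8866 of all 19938 genes were negative and the median was 0.022. An unadjusted p under 0.05 was reached by 12 members (2 higher, 10 lower), or 29.3%, against 12.4% of all genes. Groups did not overlap for 2 members that were higher and 8 that were lower, against 10.1% and 8.00% of all genes. Taken in either direction, that was 24.4% of the members and 18.1% of all genes. With 3 arrays a side, the smallest p an exact two-sided permutation test allows is 0.1, which full separation reaches. Differences of at least 1.5-fold were found for 5 members: *Ltbp1*, *Ltbp4*, *Smad3*, *Tgfb3* and *Tgfbi*. The share of all genes at that size was not counted, so the 5 are given as a description only. With control 1 and mutant 3 both left out, 1 member passed (*Ltbp1*), 29 were lower and the median was -0.16. In that fit 0.50% of all genes passed and their median was 0.0025. With the fibroblast mean as a covariate, none passed, 16 were lower and the median turned to 0.077. That fit called 2 of all 19938 genes and separates the fibroblast mean poorly from genotype.

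**Figure D2:**
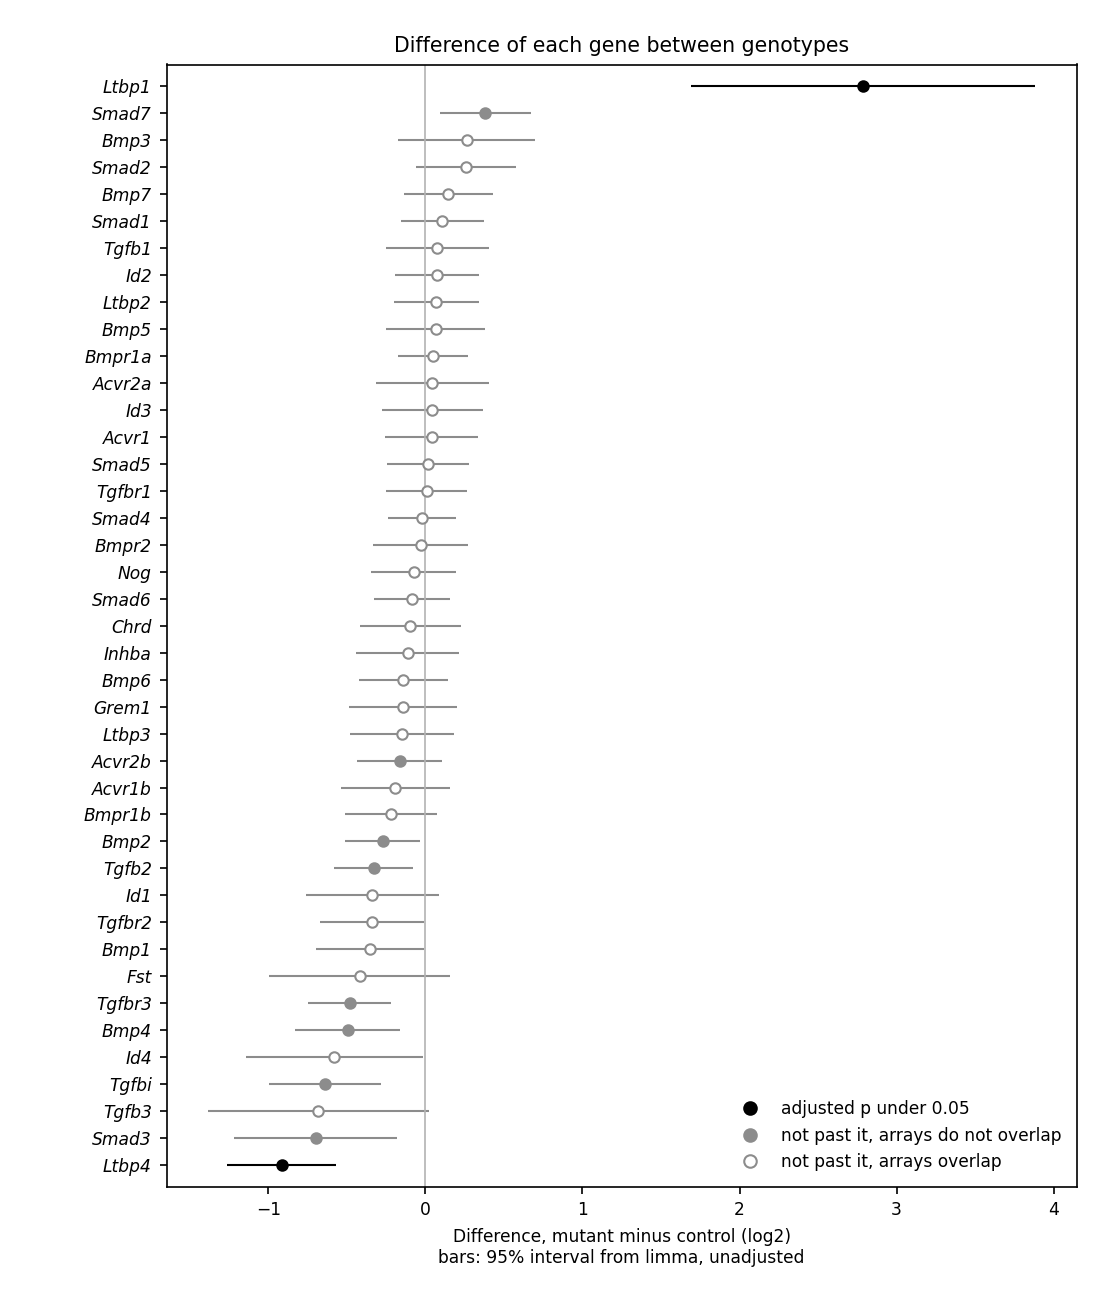
Difference of each of the 41 genes (rows, ordered by size) between mutant and control arrays on the log2 scale (horizontal axis), with bars for the 95% interval from limma, not adjusted for the number of genes; black marks an adjusted p under 0.05, and a filled point marks groups that do not overlap. *Ltbp1* stands alone at 2.79, *Ltbp4* lies lowest at -0.91, and the remaining 39 lie between -0.70 and 0.38.

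None of the TGF-beta ligand genes passed. *Tgfb1*, encoding the most widely expressed isoform, read 6.90, 7.15 and 6.94 on the control arrays and 7.27, 6.82 and 7.13 on the mutant arrays. The groups overlapped fully, and the difference was 0.077 ± 0.14 with a 95% interval from -0.25 to 0.40. *Tgfb2* was lower on each mutant array than on any control array, by -0.33 ± 0.11 (limma adjusted p = 0.254). *Tgfb3* differed by -0.68 ± 0.30 (limma adjusted p = 0.423), and its 5.96 and 5.53 on controls 2 and 3 stood apart from 4.73 on control 1 and 4.39 to 4.94 on the mutant arrays. In the male pair *Tgfb3* differed by 0.12 and in the females by -1.08, a difference between sexes that did not pass (limma adjusted p = 0.77). *Inhba*, encoding the subunit that forms activin A, read 4.52, 4.42 and 4.20 against 4.02, 4.43 and 4.35, and differed by -0.11 ± 0.14. Its mean was dim, under 4.72, the 40th percentile of all genes.

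Of 6 BMP ligand genes, none passed, and 3 were higher and 3 lower. *Bmp4*, a ligand made mostly by mesenchyme, was lower on each mutant array: 6.96, 6.95 and 7.14 on the control arrays became 6.30, 6.46 and 6.80 on the mutant arrays, a difference of -0.50 ± 0.14 (limma adjusted p = 0.192). *Bmp2* showed the same separation on a smaller scale, at -0.27 ± 0.10 (limma adjusted p = 0.333). *Bmp3*, encoding a BMP that opposes the others, read 8.03, 7.63 and 7.50 on the control arrays and 7.84, 7.80 and 8.31 on the mutant arrays, with overlap and a difference of 0.26 ± 0.19. *Bmp7*, *Bmp5* and *Bmp6* differed by 0.15 ± 0.12, 0.067 ± 0.136 and -0.14 ± 0.12, all with overlapping groups. *Bmp1* bears the family's name but encodes a metalloprotease that processes procollagen and cleaves chordin. It read 6.93, 7.30 and 7.46 on the control arrays and 6.86, 6.77 and 6.99 on the mutant arrays. Mutant 3 lay above control 1, and the difference of -0.35 ± 0.15 did not pass (limma adjusted p = 0.387).

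TGF-beta receptor genes did not pass, and the co-receptor gene differed most. *Tgfbr3*, encoding betaglycan, which presents TGF-beta2 to the signalling receptors, read 7.53, 7.47 and 7.80 on the control arrays and 7.15, 7.06 and 7.14 on the mutant arrays. The mutant arrays lay close together under all controls, at a difference of -0.48 ± 0.11 (limma adjusted p = 0.119). *Tgfbr2*, the type II kinase that binds ligand first, differed by -0.34 ± 0.14 with overlap. *Tgfbr1*, the type I kinase that phosphorylates Smad2 and Smad3, differed by 0.0075 ± 0.1118, with a 95% interval from -0.25 to 0.27.

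Differences of the 7 BMP and activin receptor genes were small, between -0.22 and 0.049, and none passed. *Bmpr2*, the type II BMP receptor, read 9.67, 9.81 and 9.70 on the control arrays and 9.46, 9.72 and 9.90 on the mutant arrays, so the mutant arrays enclosed the controls. Its difference was -0.030 ± 0.129 and turned to 0.0068 when each array was centred on its median. The type I receptor gene *Bmpr1a* varied least among controls, from 9.16 to 9.20, and differed by 0.049 ± 0.095. *Bmpr1b* differed by -0.22 ± 0.13 from a mean under 4.72, the 40th percentile of all genes, where array signal is dim. The activin receptor genes *Acvr1*, *Acvr1b*, *Acvr2a* and *Acvr2b* differed by 0.041 ± 0.127, -0.19 ± 0.15, 0.045 ± 0.155 and -0.16 ± 0.12. Among them the groups did not overlap for *Acvr2b*, where the lowest control and the highest mutant array both read 5.29.

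None of the receptor-regulated or common Smad genes passed, and the largest of their differences was that of *Smad3*, which carries TGF-beta signals to DNA. It read 7.19, 8.12 and 7.62 on the control arrays and 7.06, 7.00 and 6.76 on the mutant arrays. Control 1 lay close above the mutant arrays, and controls 2 and 3 well above them. The difference was -0.70 ± 0.22 (limma adjusted p = 0.239), -0.46 without control 2 and -0.93 without control 1. With the fibroblast mean as a covariate, which that fit separates poorly from genotype, it turned to 0.15 ± 0.40. With the skeletal muscle mean it was -0.59 ± 0.14. *Smad2*, its partner, differed the other way by 0.26 ± 0.14 with overlap. *Smad4*, the common partner of all these Smads, read 8.87, 8.76 and 8.90 against 8.77, 8.87 and 8.84, a difference of -0.020 ± 0.092 with a 95% interval from -0.24 to 0.19. The BMP Smads *Smad1* and *Smad5* differed by 0.11 ± 0.11 and 0.016 ± 0.113.

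Inhibitory Smads block the receptors and are induced by the pathway itself. *Smad7*, which acts on TGF-beta and BMP receptors alike, read 6.57, 6.76 and 6.90 on the control arrays and 7.28, 7.09 and 7.02 on the mutant arrays. Every mutant array was above every control array, and the difference of 0.38 ± 0.12 did not pass (limma adjusted p = 0.246). *Ltbp1* and *Smad7* were the 2 members higher without overlap. *Smad6*, which acts mainly on BMP signals, differed by -0.083 ± 0.103.

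All 4 secreted antagonist genes had negative differences and overlapping groups, and none passed. *Fst*, encoding follistatin, which traps activin, read 5.54, 6.50 and 5.82 on the control arrays and 5.50, 5.81 and 5.31 on the mutant arrays. Control 2 stood above the rest, and the difference was -0.42 ± 0.25, or -0.14 without control 2. The BMP antagonists noggin, chordin and gremlin 1, encoded by *Nog*, *Chrd* and *Grem1*, differed by -0.075 ± 0.117, -0.096 ± 0.138 and -0.14 ± 0.15.

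Target genes gave no call, and *Tgfbi* and *Id4* differed most. *Tgfbi*, a matrix protein gene induced by TGF-beta, read 8.90, 8.55 and 8.81 on the control arrays and 8.31, 8.19 and 7.85 on the mutant arrays. The groups did not overlap, and the difference was -0.64 ± 0.15 (limma adjusted p = 0.12). It was -0.51 without mutant 3. With the fibroblast mean as a covariate it was -1.01 ± 0.34, which did not pass either, in the fit that separates that mean poorly from genotype. *Id4* read 8.07, 7.20 and 7.79 on the control arrays and 6.89, 6.98 and 7.46 on the mutant arrays. Control 2 lay within the mutant range, and the difference was -0.58 ± 0.24 (limma adjusted p = 0.386). *Id1* read 7.66, 6.93 and 7.41 against 6.99, 6.91 and 7.10, again with control 2 among the mutant values, and differed by -0.34 ± 0.18. *Id2* and *Id3* differed by 0.071 ± 0.115 and 0.043 ± 0.138. The 4 Id genes thus did not share a direction.

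**Figure D3:**
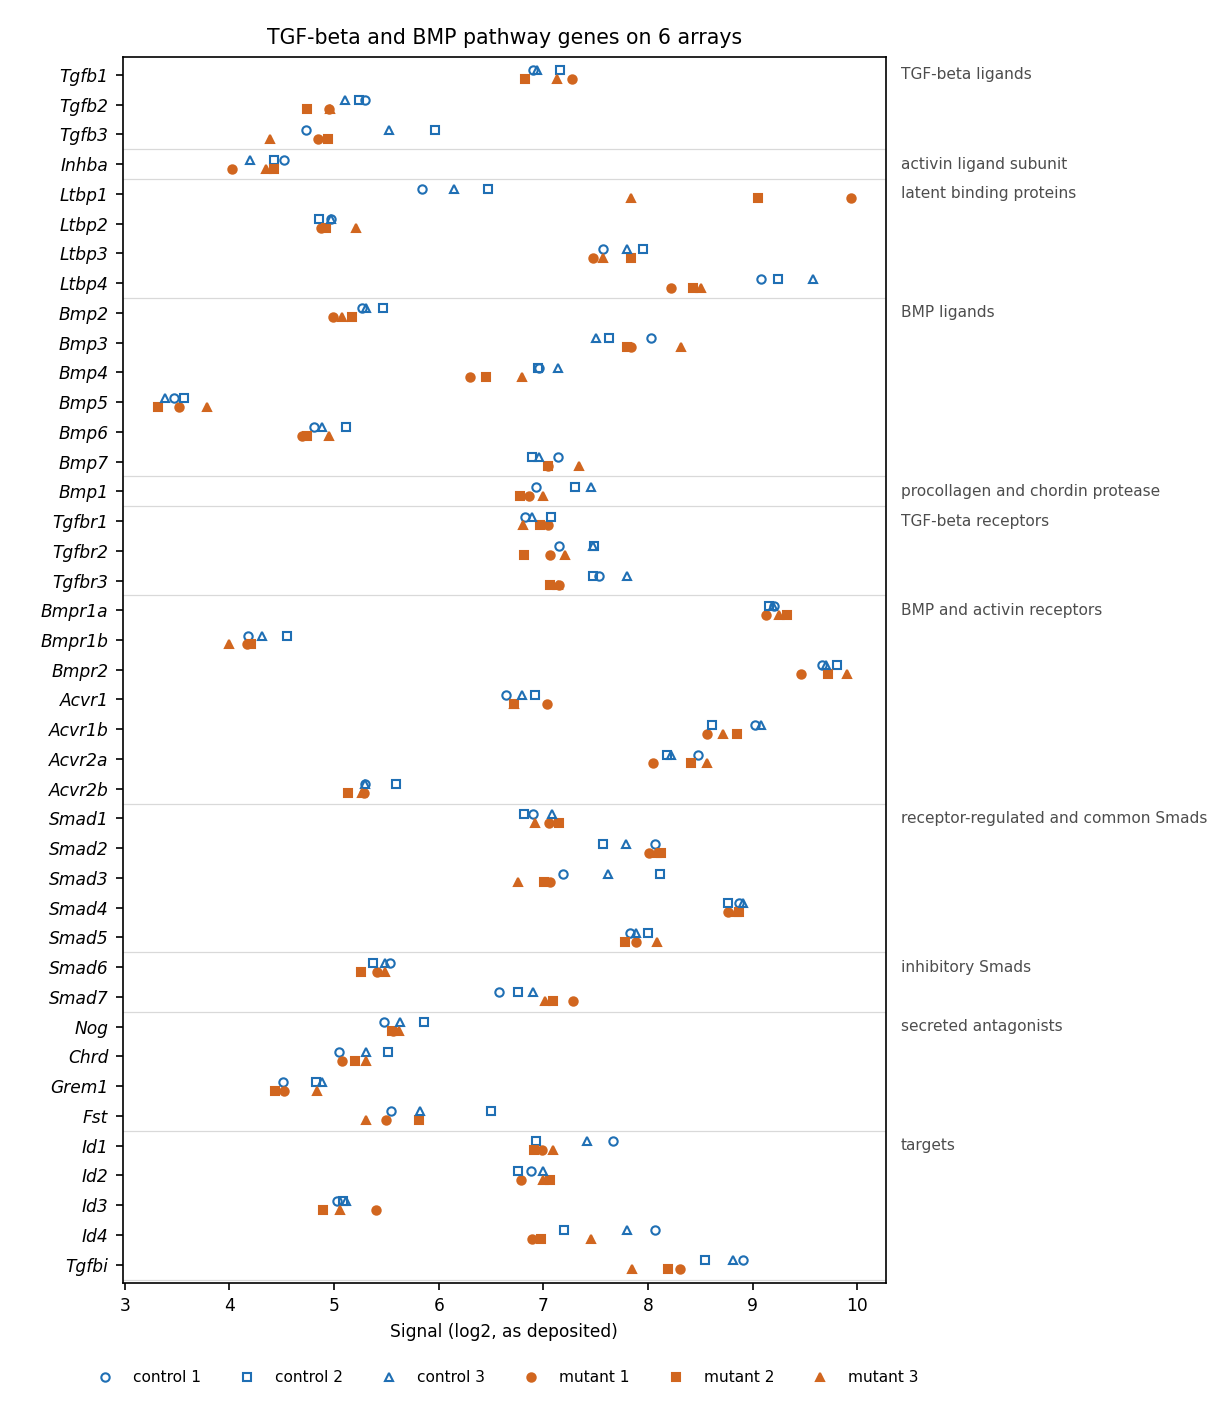
Log2 signal (horizontal axis) of the 41 genes (rows, grouped by role as named at the right) on the 6 arrays, with open blue symbols for control, filled orange symbols for mutant, and the symbol's shape for the replicate number. Most genes overlap between the groups, *Ltbp1* and *Ltbp4* separate in opposite directions, and signals of different genes cannot be compared as levels.

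Spread between animals was alike in the groups. The SD among mutant arrays exceeded that among controls for 20 members and was smaller for 21, with median SDs of 0.16 and 0.17. *Ltbp1* had the widest spread among mutant arrays (1.06) and *Tgfb3* among controls (0.62). For 8 members (*Tgfb3*, *Ltbp1*, *Tgfbr1*, *Bmpr1b*, *Acvr1*, *Smad3*, *Smad7* and *Fst*), control 1 was the lowest control and mutant 3 the lowest mutant array. That is 19.5% of the members, against 8.56% of all genes and all 6 skeletal muscle markers. The pattern was also held by 50% of the endothelial markers and by 33.3% of both the fibroblast and the macrophage markers. For smooth muscle and squamous markers the share was 16.7% and 12.5%. The part of muscle or of other cell types in these members' values was not tested beyond the fits given here. With 1 male in each group, sex and skeletal muscle signal could not be told apart for them either. No member had a difference that depended on sex by the test (0.0451% of all genes did), and 4 reached an unadjusted p under 0.05 there, as did 5.82% of all genes: *Acvr2a*, *Ltbp1*, *Tgfb3* and *Smad3*.

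Other genes of the pathway gave no calls. Of 51 further genes, 47 were measured: 18 were higher and 29 lower, with a median of -0.030, and none passed the test. *Msx2*, encoding a homeobox factor induced by BMP, had the smallest p of these. It read 4.35, 4.36 and 4.36 on the control arrays and 4.78, 4.88 and 5.15 on the mutant arrays, a difference of 0.59 ± 0.12 (limma adjusted p = 0.0777) from a dim control level. *Fstl1*, encoding a follistatin-like glycoprotein that binds BMP4, read 6.66, 7.23 and 7.72 against 5.95, 6.10 and 5.96, lower without overlap by -1.20 ± 0.24 (limma adjusted p = 0.0793). Unadjusted p-values under 0.05 were also reached by *Msx1* (0.26 ± 0.11), *Dcn* (-1.19 ± 0.24), *Itgb6* (-0.70 ± 0.25), *Twsg1* (-0.27 ± 0.09) and *Acvrl1* (-0.23 ± 0.09), named after their values were seen. Of the 47 genes, 2 higher and 5 lower reached it, or 14.9%, close to the 12.4% of all genes. Groups did not overlap for 19.1% of the 47 and 18.1% of all genes, and they overlapped for *Itgb6*. *Dcn* encodes decorin, a TGF-beta-binding proteoglycan of fibroblasts, and *Itgb6* a chain of the epithelial integrin that activates latent TGF-beta.

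**Figure D4:**
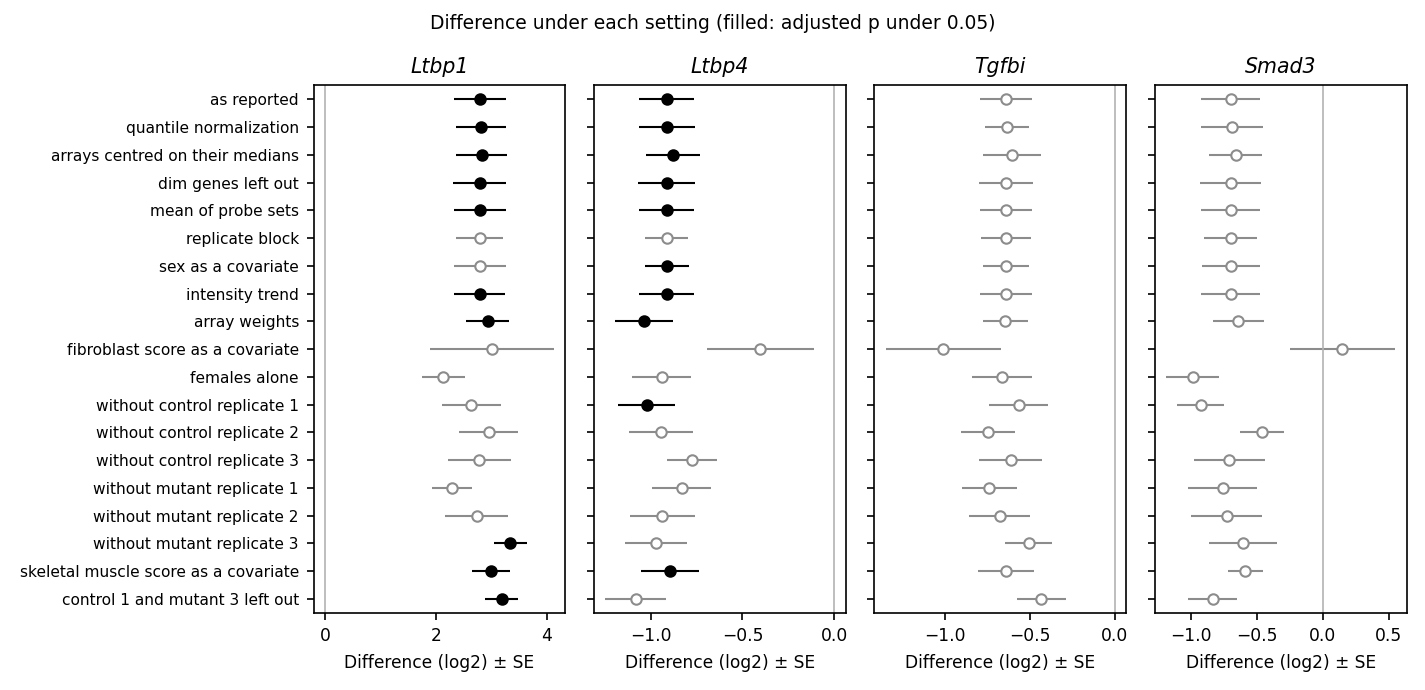
Difference between mutant and control (log2, horizontal axis) with its SE for *Ltbp1*, *Ltbp4*, *Tgfbi* and *Smad3* as reported and under 18 other settings (rows); filled black points mark a limma adjusted p under 0.05. *Ltbp1*, *Ltbp4* and *Tgfbi* keep their direction in every row shown, while *Smad3* turns to 0.15 with the fibroblast mean as a covariate, and *Ltbp1* and *Ltbp4* each pass in 9 of the 18.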

How the data were processed

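Per the labels' protocols, 100 ng of column-purified RNA from each animal's esophageal epithelium was copied with poly(T) primers, amplified and tagged with biotin. The authors deposited a table of log2 values (28853 probe sets, 6 arrays). The submitters' processing notes name Partek 6.4. How background was corrected and arrays normalized, which sets how far dim differences are compressed, is not given in the sources used. Medians per array ranged from 5.01 to 5.13, and arrays have no read depth: their number limits precision.

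Probe sets were named from GEO's platform annotation, with symbols updated by Entrez identifier (21698 of 21789 matched). Of the probe sets, 1621 named several genes and 5443 none. Each of 19938 genes was read from its brightest probe set by mean, and every member had a single probe set. Nothing was filtered or renormalized.

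Genotype differences were fitted over all genes in R 4.3.3 by lmFit and eBayes of limma 3.58.1 (two-sided, 4 residual degrees of freedom), adjusted by Benjamini-Hochberg and called at 0.05. SEs are moderated. A genotype by sex interaction was fitted likewise. The fit was tested on simulated data. A first simulation gave more false calls than the limit set for it; it was replaced by repeated simulations under 2 models of the spread, with a limit set after that failure. The fit itself was not changed. Under the model using limma's moderated spreads the mean share of false calls was above the nominal 0.05, so calls close to the threshold, *Ltbp1* and *Ltbp4* among them, are less certain than their adjusted p states. The members and lists were chosen with earlier results of these data known. Values on each array are given for members that passed, that differed by at least 0.5 without overlap, or that had the highest mean in their role, and also for *Bmp4*, *Id1*, *Id4* and part of *Tgfb3*, chosen after their values were seen. Other pathway genes are named by the 2 smallest p-values, and 5 more with an unadjusted p under 0.05 were added after their values were seen. *Ctgf* was matched as *Ccn2*, and listed genes with no probe set of their own name were not analysed here. Arrays are separate animals. Plots were drawn with matplotlib 3.10.9.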

Additional observations from a re-analysis of the deposited data

How the results depend on the processing

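The 2 members that passed, *Ltbp1* and *Ltbp4*, passed again with quantile normalization, arrays centred on their medians, dim genes left out, the mean of probe sets, an intensity trend, array weights and a skeletal muscle covariate. With sex as a covariate 1 passed (*Ltbp4*), and 0 passed with a fibroblast covariate or in the females alone. With each array left out in turn the number was 0 to 1. With control 1 and mutant 3 both left out it was 1, and the members' median was -0.16; the median was 0.077 with the fibroblast covariate and between -0.13 and -0.056 with single arrays left out. The count of sex-dependent members stayed 0 in the 4 settings tried. The replicate block gave 0 members (adjusted p = 0.0749 for *Ltbp1* and 0.0512 for *Ltbp4*) and 81 called genes instead of 207. Deviations of same-numbered arrays correlated at -0.17, 0.090 and -0.10, so the numbers were not taken as pairs.

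*Ltbp1* and *Ltbp4* kept their direction in all 18 settings. Among the other genes followed through the settings, none of which passed in any, some reversed. With arrays centred on their medians *Bmpr2* was at 0.0068 and *Smad4* at 0.017. With the fibroblast covariate *Bmp3*, *Bmp1*, *Bmpr2*, *Smad3* and *Fst* were at -0.30, 0.26, 0.18, 0.15 and 0.40. In the females alone *Tgfb1*, *Inhba*, *Bmpr2* and *Smad4* were at -0.070, 0.078, 0.056 and 0.020, and with control 1 and mutant 3 left out *Tgfb1* was at -0.0012. With single arrays left out, *Tgfb1* ranged from -0.021 to 0.20, *Inhba* from -0.20 to 0.0088, *Bmpr2* from -0.13 to 0.086 and *Smad4* from -0.062 to 0.0096. The causes were not tested. All 41 genes other than the 4 dim ones (*Inhba*, *Bmp5*, *Bmpr1b* and *Grem1*) were kept when dim genes were left out. Genes called overall ranged from 2 with the fibroblast covariate to 370 with array weights, and the 2 settings on skeletal muscle were chosen after seeing the data.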
